A study of Mus musculus with 5 samples.

Results

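The genes described here encode the nuclear pore complex and the factors that carry cargo through it. They were chosen by symbol: Nup, Kpna, Kpnb, Xpo or Ipo followed by a digit, and Tpr, Ran, Rcc1, Rangap1, Ranbp1, Ranbp2, Cse1l, Tnpo1, Tnpo2, Tnpo3, Nutf2, Ndc1 and Pom121. Of the 16003 genes with an expression value, 51 matched. A further 2 matching symbols, Kpna7 and Nup62cl, carried no value. The rule uses only symbols and the presence of a value, but it was chosen with earlier results of these data known. Of the 51 genes, 24 encode nucleoporins and 27 encode transport receptors or proteins of the Ran cycle.

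The cells were RAW264.7, a mouse line of the monocyte/macrophage type, from which polyadenylated RNA was sequenced. CD137 cells carried Renilla luciferase and mouse Cd137, which encodes a surface receptor of the TNF receptor family that gives co-stimulatory signals; control cells carried Renilla luciferase without Cd137. Both groups therefore share the cell line and the luciferase. Values from CD137 replicates 2 and 3 and control replicate 2 were used, and CD137 replicate 1 and control replicate 1 were not analysed here. Neither the vector nor a clonal origin of the cells is given, and separate cultures are not stated, so p-values here rest on variation among libraries that may be only technical. The control is 1 library and was assumed to vary as the CD137 libraries do.

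Traffic between nucleus and cytoplasm passes through the nuclear pore complex, a ring of nucleoporins set in the nuclear envelope. Its scaffold consists of outer rings built from the Y complex and of an inner ring, and nucleoporins with phenylalanine-glycine repeats fill the channel. Importins bind cargo in the cytoplasm and release it when they meet Ran-GTP in the nucleus. Exportins bind cargo together with Ran-GTP and release it when the GTP is hydrolysed in the cytoplasm.

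Tnfrsf9, the gene for CD137, stood at 364 and 369.95 FPKM in CD137 replicates 2 and 3, against 5.06 FPKM in the control. FPKM is fragments per kilobase of transcript, scaled to the library's mapped fragments. Of 8 macrophage markers, 7 were at 1 FPKM or more, while Mrc1 was near 0. Macrophage markers summed to 1772 and 1817 FPKM in CD137 cells, against 2957 FPKM in the control, a gap in which Lyz2 had the largest share. Of the 7, Csf1r, Cd68, Cd14 and Lyz2 were lower in both CD137 libraries than in the control, whereas Fcgr1, Itgam and Adgre1 were higher, Fcgr1 with 89.9 and 95.2 FPKM in CD137 cells and 45.2 FPKM in the control. Epithelial markers (4 genes) summed to 6.28 and 1.17 FPKM in CD137 replicates 2 and 3, against 0.67 FPKM in the control, so CD137 replicate 2 stood apart. T cell, B cell and fibroblast markers with a value lay below 1 FPKM in all libraries. Osteoclast markers summed to 5.81 and 5.69 FPKM in CD137 cells and 3.39 FPKM in the control, most of it Acp5. Acp5 alone of them reached 1 FPKM. Below that level, Ctsk was higher and Ocstamp lower in both CD137 libraries than in the control, and Calcr had no value. The endothelial marker Pecam1 was at 1.54 and 1.71 FPKM in CD137 cells and 1.45 FPKM in the control. Sequencing depth was estimated at 0.983 (CD137 replicate 2) and 0.988 (CD137 replicate 3) of the control's.

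Transcripts of the pore and transport machinery were lower in CD137 cells across most of the set. All 50 genes at 1 FPKM or more were at that level in every library, and 35 of these 50 genes fell, 3 rose and 12 did not pass the test. The exception to that level was Nup210l, a paralogue of the membrane nucleoporin Nup210, at 0.32 and 0.28 FPKM in CD137 cells and 0.30 FPKM in the control. The 3 genes that rose were Nup93, Tnpo2 and Kpna4. Calls came from limma on log2(FPKM + 1) over 10720 expressed genes, with Benjamini-Hochberg adjusted p under 0.05. Among all expressed genes 42.6 percent were called, 18.2 percent lower and 24.4 percent higher, whereas 70 percent of the 50 genes were called lower and 6 percent higher. Every call depends on a filter on low values, here at 1 FPKM. Without a filter limma called 0 of 16003 genes. At an unadjusted p under 0.05 that fit gave 32 of the 51 genes lower and 4 higher. Of all 16003 genes it gave 5281, a total not split by direction, so the 32 have no matching share. Without limma's mean-variance trend 28 genes of the set fell and 2 rose, and over all 10720 expressed genes 1627 fell and 2174 rose. In that fit Ipo13, Kpna2, Kpna4, Nup153, Nup62, Pom121, Tnpo1 and Xpo1 did not pass.

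Both CD137 libraries lay below the control for 40 of the 50 genes (80 percent), above it for 6 and on either side of it for 4. Over all expressed genes the shares were 40.2 percent below, 49.0 percent above and 10.8 percent on either side. The median log2 fold change was -0.30 for the 50 genes and 0.03 for all expressed genes. Most changes were moderate. Of the 50 genes, 8 were at least 1.5-fold lower, as were 4.32 percent of expressed genes, and 0 were at least 1.5-fold higher, against 8.06 percent of expressed genes. In bulk RNA, fewer cells that express a gene and less RNA per cell cannot be told apart.

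**Figure D1:**
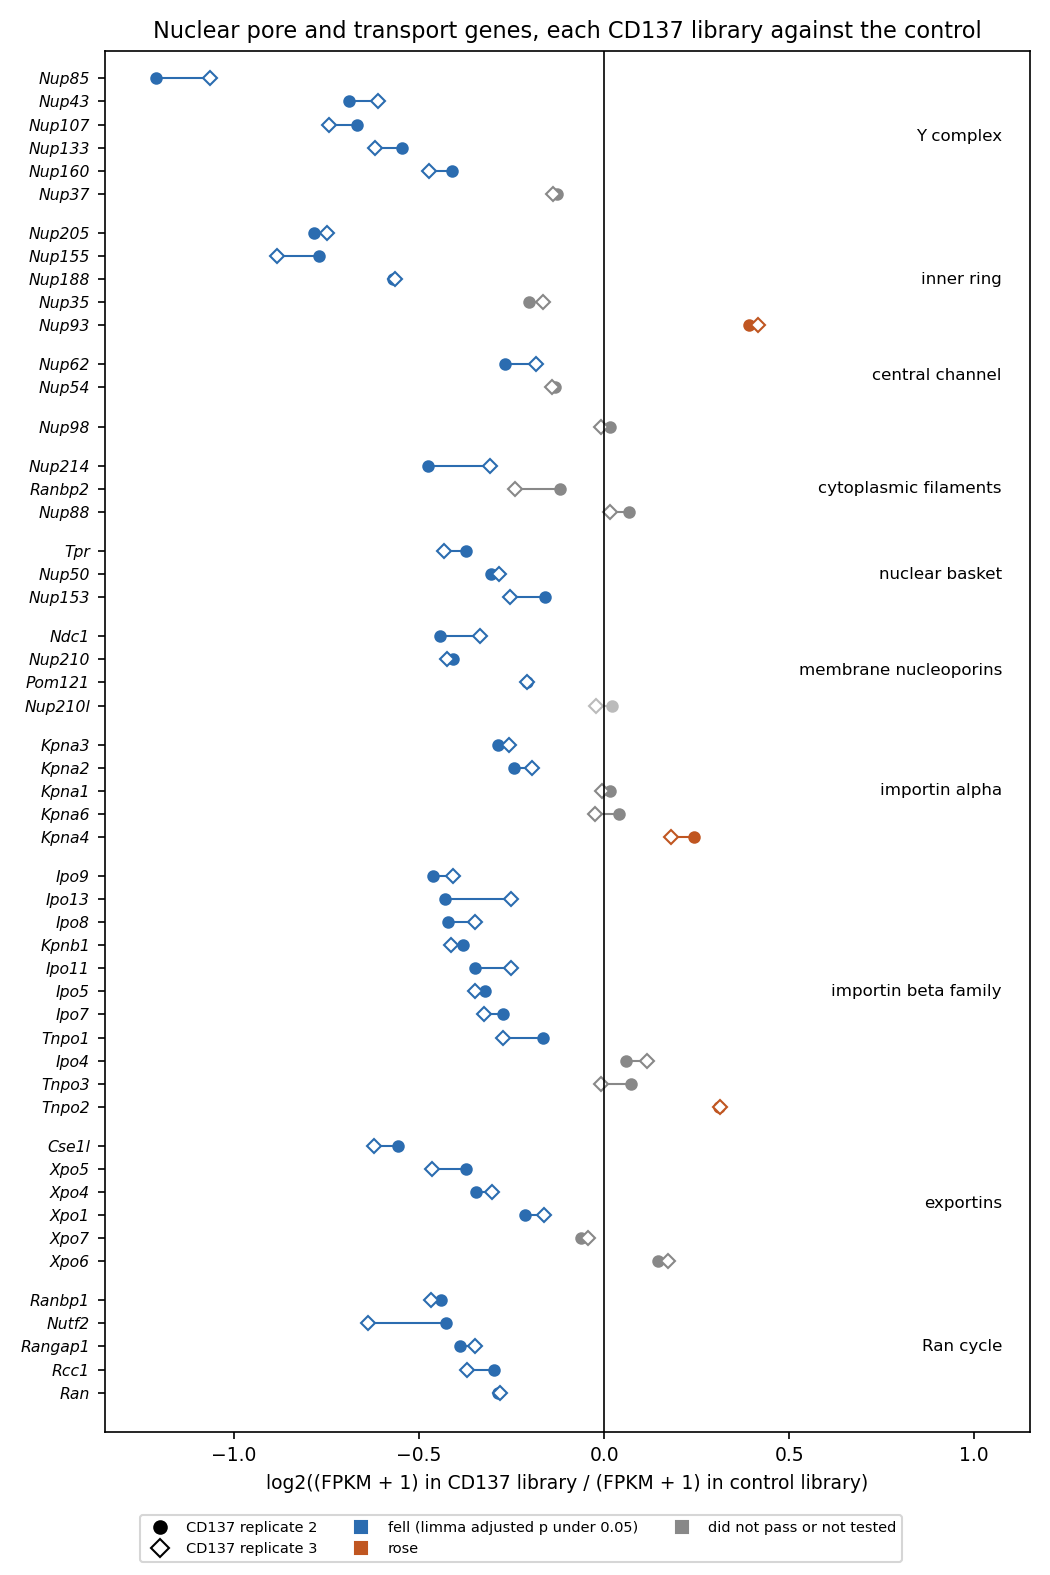
Log2 ratio of FPKM + 1 in each CD137 library to the control, for 51 genes grouped by role. Filled circles are CD137 replicate 2 and open diamonds replicate 3; blue genes fell, orange genes rose and grey genes did not pass or, for Nup210l, were not tested. The Y complex and inner ring reach furthest to the left, and Nup93, Tnpo2 and Kpna4 stand to the right of 0.

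The CD137 libraries were close to each other, with a median absolute log2 difference of 0.05 over the 50 genes and a maximum of 0.21 at Nutf2, against a median absolute fold change of 0.32. The median for CD137 replicate 2, the library with epithelial transcripts, was -0.30 against the control, and for replicate 3 it was -0.28. Summed over all 51 genes, levels were 2029 and 2017 FPKM in CD137 cells and 2447 FPKM in the control. The genes were well expressed, with a median of 26.4 FPKM against 14.7 FPKM for expressed genes, and 44 of the 50 were above that median. Across the 50 genes, level and log2 fold change had a Spearman correlation of 0.23 and a Pearson correlation of 0.20, which describe genes that share libraries. The genes lie on 15 chromosomes.

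**Figure D2:**
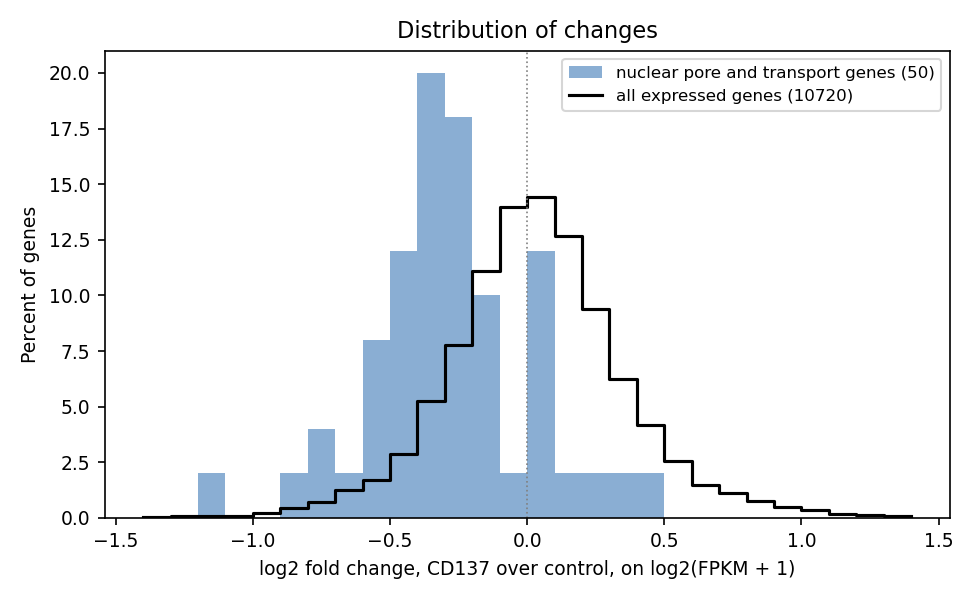
Percent of genes in each bin of log2 fold change, CD137 over control, for the 50 nuclear pore and transport genes (filled bars) and 10720 expressed genes (line). The filled bars peak between -0.4 and -0.3 with 20 percent of the genes, and the line peaks just above 0.

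Whole reads could be solved from the authors' p-values for 39 of the 51 genes, from 334 to 13020 reads per library with a median of 1888. The 95 percent interval (exact Clopper-Pearson on the reads, counting error only) of the ratio of CD137 to control lay below 1 for 30 genes and above 1 for 4. Among the 30, Nup35, Nup37 and Nup54 did not pass the limma test, and among the 4, Ipo4 did not. Such intervals were made only for genes of the set, so these counts have no share over all expressed genes to be set against. Between the CD137 libraries the chi-square was 1.68 per gene, against about 1 from counting alone, so intervals from counting error only are too narrow.

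The Y complex forms the outer rings of the pore scaffold. Of the 6 genes of the symbol rule grouped with it 5 fell, with a median log2 fold change of -0.62. With the subunits Seh1l and Sec13, which the rule does not match, 6 of 8 genes fell and the median was -0.51. With Ahctf1 added as well, 6 of 9 fell and the median was -0.44. The gene Nup98 also encodes the Y complex subunit Nup96 but was grouped apart, with a log2 fold change of 0.00. Nup85, a core subunit at chr11:115564436-115583924 (mm10), measured 16.9 and 18.9 FPKM in CD137 cells, against 40.5 FPKM in the control. That was 0.441 of the control level, a log2 fold change of -1.14 ± 0.08 (SE; limma, adjusted p = 0.00121). The reads behind it were 636 and 714 in CD137 cells and 1545 in the control, a ratio of 0.443 (95 percent interval 0.412 to 0.477). Nup85 was the gene that fell furthest among the 50.

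Nup107, for which the complex is often named, had 13.7 and 12.9 FPKM in CD137 cells and 22.4 FPKM in the control (log2 fold change -0.71 ± 0.06, adjusted p = 0.00197). Nup43, a peripheral subunit, had 14.9 and 15.8 FPKM in CD137 cells and 24.7 FPKM in the control, a log2 fold change of -0.65 ± 0.06 (adjusted p = 0.00221). Nup43 overlaps Pcmt1 on the opposite strand over 11383 bases, and strandedness is not given in the sources used here, so reads of the pair could be shared. Pcmt1 stood at 27.1 and 27.9 FPKM in CD137 cells and 29.1 FPKM in the control.

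Nup133, at the end of the stem of the complex, was the least abundant expressed gene of the set, with 3.80 and 3.56 FPKM in CD137 cells and 6.01 FPKM in the control (adjusted p = 0.00700). Nup160 measured 15.7 and 15.0 FPKM in CD137 cells and 21.2 FPKM in the control (adjusted p = 0.00517). Nup37 did not pass the test, at 40.7 and 40.4 FPKM in CD137 cells and 44.5 FPKM in the control (adjusted p = 0.0645). Summed over the 6 genes, levels were 106 and 107 FPKM in CD137 cells and 159 FPKM in the control.

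Genes of the inner ring, the scaffold layer at the middle of the pore, moved in both directions: 3 fell, 1 rose and 1 did not pass. Nup205 and Nup188 are large scaffold proteins that each bind Nup93. Nup205, at chr6:35177616-35247599, measured 19.5 and 20.0 FPKM in CD137 cells and 34.4 FPKM in the control (log2 fold change -0.77 ± 0.05, adjusted p = 0.00121). Nup188 measured 18.6 and 18.7 FPKM in CD137 cells and 28.1 FPKM in the control (log2 fold change -0.57 ± 0.05, adjusted p = 0.00200). Nup155, which joins the ring to the membrane, measured 10.0 and 9.17 FPKM in CD137 cells and 17.8 FPKM in the control (log2 fold change -0.83 ± 0.07, adjusted p = 0.00200).

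Nup93, the linker of the inner ring, at chr8:94214540-94315066, moved the other way. It measured 101 and 103 FPKM in CD137 cells, against 77.0 FPKM in the control, a log2 fold change of 0.40 ± 0.04 (limma, adjusted p = 0.00233). Its reads gave a ratio of 1.33 (95 percent interval 1.28 to 1.38). Nup93 was also the most abundant in every library among the nucleoporins matched by the symbol rule. The ratio of Nup93 to Nup205 FPKM was 5.17 in CD137 cells and 2.24 in the control. Nup35, the smallest protein of the ring, measured 12.6 and 12.9 FPKM in CD137 cells and 14.6 FPKM in the control and did not pass (adjusted p = 0.0595).

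**Figure D3:**
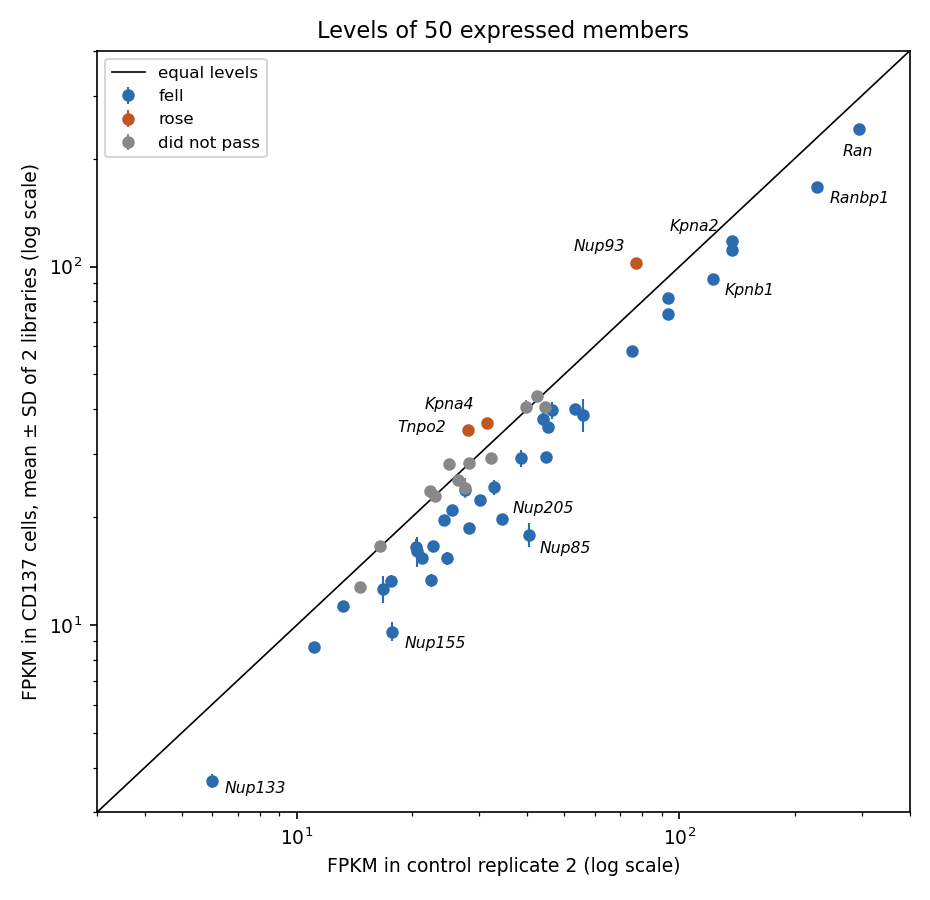
Mean FPKM in CD137 cells (± SD of 2 libraries) against FPKM in the control, both on log scales, for 50 expressed genes. Blue genes fell, orange genes rose and grey genes did not pass; most points lie below the line of equal levels, from Nup133 at the low end to Ran at the high end.

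In the central channel, Nup62 and Nup54 carry phenylalanine-glycine repeats that contact transport receptors. Nup62 fell, with 36.4 and 38.6 FPKM in CD137 cells and 44.0 FPKM in the control (adjusted p = 0.0277). It overlaps the predicted gene Gm21948, at or near 1 FPKM, on the same strand over 15467 bases, so reads of the pair could be shared. Nup54 measured 29.3 and 29.1 FPKM in CD137 cells and 32.2 FPKM in the control and did not pass (adjusted p = 0.0717). Nup98, a mobile repeat nucleoporin, measured 23.2 and 22.8 FPKM in CD137 cells and 22.9 FPKM in the control, with a log2 fold change of 0.00 ± 0.05 (adjusted p = 0.962).

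Of the 3 genes of the cytoplasmic filaments, 1 fell. Nup214, which with Nup88 anchors RNA export factors on the cytoplasmic side, measured 11.8 and 13.4 FPKM in CD137 cells and 16.8 FPKM in the control (log2 fold change -0.39 ± 0.09, adjusted p = 0.0207). Nup214 overlaps Fam78a on the opposite strand over 1844 bases, so reads of the pair could be shared. Fam78a stood at 4.64 and 5.32 FPKM in CD137 cells and 7.96 FPKM in the control. Ranbp2, a large filament protein that binds Ran and holds Rangap1 at the pore, measured 25.2 and 23.1 FPKM in CD137 cells and 27.4 FPKM in the control (adjusted p = 0.0898). Nup88 measured 44.4 and 42.9 FPKM in CD137 cells and 42.4 FPKM in the control (adjusted p = 0.514).

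All 3 genes of the nuclear basket, the structure on the nucleoplasmic side, fell. Tpr, its main filament protein, had 40.9 and 39.2 FPKM in CD137 cells and 53.3 FPKM in the control (log2 fold change -0.40 ± 0.05, adjusted p = 0.00404). Nup50, which helps to release cargo from importin alpha, had 19.4 and 19.8 FPKM in CD137 cells and 24.3 FPKM in the control (adjusted p = 0.0109). Nup153, which anchors the basket, had 24.6 and 23.0 FPKM in CD137 cells and 27.6 FPKM in the control, with an adjusted p of 0.0476 that lies close to the threshold.

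The expressed membrane nucleoporins, which fix the pore in the envelope, also fell in all 3 cases. Nup210 had 22.4 and 22.1 FPKM in CD137 cells and 30.1 FPKM in the control (log2 fold change -0.42 ± 0.05, adjusted p = 0.00386). Ndc1 had 28.1 and 30.4 FPKM in CD137 cells and 38.6 FPKM in the control (adjusted p = 0.00856). Pom121 had 11.3 FPKM in both CD137 libraries and 13.2 FPKM in the control (adjusted p = 0.0430). It overlaps Nsun5 on the opposite strand over 666 bases. Nsun5 stood at 6.35 and 6.33 FPKM in CD137 cells and 7.57 FPKM in the control. Of the nucleoporins matched by the symbol rule, 16 of the 23 expressed genes fell and 1 rose.

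Importin alpha proteins bind the classical nuclear localisation signal and pair with importin beta. Of these 5 adaptors, 2 fell, 1 rose and 2 did not pass. Kpna2, the most abundant, measured 116 and 119.8 FPKM in CD137 cells and 137 FPKM in the control (log2 fold change -0.22 ± 0.04, adjusted p = 0.0127). Kpna3 measured 20.6 and 21.1 FPKM in CD137 cells and 25.4 FPKM in the control (adjusted p = 0.0135). Kpna4, a close relative of Kpna3, measured 37.4 and 35.8 FPKM in CD137 cells and 31.4 FPKM in the control, a log2 fold change of 0.21 ± 0.05 (adjusted p = 0.0276). The CD137 libraries lay on either side of the control for Kpna1 and Kpna6. Kpna1 was at 28.4 and 28.0 FPKM in CD137 cells and 28.1 FPKM in the control, and Kpna6 was at 17.0 and 16.2 FPKM in CD137 cells and 16.5 FPKM in the control.

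The importin beta family holds the receptors that carry cargo in through the pore, with or without an adaptor; 8 of its 11 genes fell, 1 rose and 2 did not pass. Kpnb1, importin beta itself, at chr11:97159710-97187892, measured 93.5 and 91.4 FPKM in CD137 cells and 122 FPKM in the control (log2 fold change -0.40 ± 0.04, adjusted p = 0.00247). Its ratio rests on 9803 and 9629 reads in CD137 cells and 13020 reads in the control and had a 95 percent interval of 0.741 to 0.774. Ipo7, an importer of ribosomal proteins and histones and the most abundant of the family, measured 113 and 109 FPKM in CD137 cells and 137 FPKM in the control (adjusted p = 0.00574).

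Ipo9, an importer of histones, measured 16.2 and 16.9 FPKM in CD137 cells and 22.8 FPKM in the control, the lowest log2 fold change of the family at -0.44 ± 0.06 (adjusted p = 0.00480). Ipo8 measured 12.9 and 13.6 FPKM in CD137 cells and 17.6 FPKM in the control (adjusted p = 0.00898). Ipo13, which carries cargo in both directions, measured 15.0 and 17.1 FPKM in CD137 cells and 20.6 FPKM in the control (adjusted p = 0.0328). The other 3 that fell were Ipo5, Ipo11 and Tnpo1, at 0.790, 0.803 and 0.856 of the control level.

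Tnpo1 and Tnpo2 are close paralogues that import RNA-binding proteins, and they moved in opposite directions. Tnpo1 measured 41.2 and 38.1 FPKM in CD137 cells and 46.4 FPKM in the control (adjusted p = 0.0401). Tnpo2 measured 35.0 FPKM in both CD137 libraries and 28.0 FPKM in the control, a log2 fold change of 0.31 ± 0.05 (adjusted p = 0.00670), and its reads gave a ratio of 1.25 (95 percent interval 1.19 to 1.31). Tnpo3, which imports splicing factors, and Ipo4 did not pass. Ipo4 measured 23.2 and 24.1 FPKM in CD137 cells and 22.2 FPKM in the control, and Tnpo3 measured 41.9 and 39.5 FPKM in CD137 cells and 39.8 FPKM in the control.

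Exportins carry cargo out of the nucleus with Ran-GTP; 4 of these 6 genes fell and 2 did not pass. Cse1l, the exportin that returns importin alpha to the cytoplasm, at chr2:166906096-166946389, fell furthest among all receptors. It measured 30.1 and 28.8 FPKM in CD137 cells and 44.8 FPKM in the control (log2 fold change -0.59 ± 0.05, adjusted p = 0.00196). Xpo5, which exports microRNA precursors, measured 25.0 and 23.4 FPKM in CD137 cells and 32.7 FPKM in the control (log2 fold change -0.42 ± 0.06, adjusted p = 0.00618). Xpo4 measured 8.52 and 8.81 FPKM in CD137 cells and 11.1 FPKM in the control (adjusted p = 0.0165).

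Xpo1, the general exporter of proteins with a leucine-rich export signal and the most abundant exportin, measured 80.2 and 83.2 FPKM in CD137 cells and 93.2 FPKM in the control (log2 fold change -0.19 ± 0.04, adjusted p = 0.0238). Xpo6, the exporter of actin, measured 27.8 and 28.4 FPKM in CD137 cells and 25.0 FPKM in the control and did not pass (adjusted p = 0.0537). Xpo7 measured 25.2 and 25.5 FPKM in CD137 cells and 26.3 FPKM in the control (adjusted p = 0.423). It overlaps Dok2 on the opposite strand and Npm2 on the same strand.

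The Ran cycle supplies the direction of transport, and all 5 genes grouped with it here fell. Ranbp2 also belongs to this cycle but was counted with the cytoplasmic filaments, and it did not pass. Rangrf, a Ran-binding protein outside the symbol rule, rose. Ran itself, at chr5:129020156-129024322, was the most abundant gene of the set in every library, at 241 and 242 FPKM in CD137 cells and 294 FPKM in the control (log2 fold change -0.28 ± 0.03, adjusted p = 0.00364). Rcc1, the chromatin-bound exchange factor that loads Ran with GTP, measured 36.7 and 34.8 FPKM in CD137 cells and 45.3 FPKM in the control (adjusted p = 0.00821). Rangap1, which triggers GTP hydrolysis in the cytoplasm, measured 57.1 and 58.8 FPKM in CD137 cells and 75.1 FPKM in the control (adjusted p = 0.00375).

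Ranbp1, which assists that hydrolysis, measured 169 and 166 FPKM in CD137 cells and 229 FPKM in the control (log2 fold change -0.45 ± 0.04, adjusted p = 0.00164). Nutf2, which returns Ran-GDP to the nucleus, measured 41.5 and 35.7 FPKM in CD137 cells and 56.1 FPKM in the control (log2 fold change -0.53 ± 0.09, adjusted p = 0.0108). Nutf2 shares sequence with Nutf2-ps2, listed at 42.3 and 52.2 FPKM in CD137 cells and 55.5 FPKM in the control, and reads may be split between the pair. Summed, the pair stood at 83.8 and 87.9 FPKM in CD137 cells and 112 FPKM in the control, 0.769 of the control level.

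Promoter sequence is shown for the 6 genes of the set that hold the letters GCGCATGC, the core of the motif of NRF1, in the 250 bases before the RefSeq start (GRCm38.p6), and for the first listed promoter of Nup93, which rose and lacks them. Each run reads 5′ to 3′ on the gene's strand, with capitals at GCGCATGC (NRF1), CCGGAAG (ETS), TTTCCCGC or TTTGGCGC (E2F) and CACGTG (E-box), on either strand.
Nup107, chr10:117792706-117792955, minus strand: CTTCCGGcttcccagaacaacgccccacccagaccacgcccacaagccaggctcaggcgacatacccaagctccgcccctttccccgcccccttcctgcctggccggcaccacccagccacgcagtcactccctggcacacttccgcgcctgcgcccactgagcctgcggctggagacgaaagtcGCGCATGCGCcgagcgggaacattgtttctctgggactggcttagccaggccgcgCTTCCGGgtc
Nup50, chr15:84923178-84923427, plus strand: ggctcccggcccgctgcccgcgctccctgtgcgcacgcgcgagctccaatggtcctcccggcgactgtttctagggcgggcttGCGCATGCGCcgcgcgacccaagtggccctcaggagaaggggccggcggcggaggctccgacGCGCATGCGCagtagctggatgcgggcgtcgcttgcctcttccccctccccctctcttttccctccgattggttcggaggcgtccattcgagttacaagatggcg
Nup62, chr7:44815838-44816087, plus strand: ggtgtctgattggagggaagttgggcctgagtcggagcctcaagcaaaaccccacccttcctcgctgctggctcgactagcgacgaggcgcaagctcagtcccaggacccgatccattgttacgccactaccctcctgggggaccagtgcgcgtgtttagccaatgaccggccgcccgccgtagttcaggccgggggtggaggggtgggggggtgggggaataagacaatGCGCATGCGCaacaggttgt
Ran, chr5:129019906-129020155, plus strand: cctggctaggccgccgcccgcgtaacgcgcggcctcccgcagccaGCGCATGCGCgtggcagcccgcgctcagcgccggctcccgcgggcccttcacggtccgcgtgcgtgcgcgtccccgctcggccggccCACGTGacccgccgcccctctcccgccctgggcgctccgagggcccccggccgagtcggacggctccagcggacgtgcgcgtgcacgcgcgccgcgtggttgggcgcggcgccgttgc
Ranbp1, chr16:18248695-18248944, minus strand: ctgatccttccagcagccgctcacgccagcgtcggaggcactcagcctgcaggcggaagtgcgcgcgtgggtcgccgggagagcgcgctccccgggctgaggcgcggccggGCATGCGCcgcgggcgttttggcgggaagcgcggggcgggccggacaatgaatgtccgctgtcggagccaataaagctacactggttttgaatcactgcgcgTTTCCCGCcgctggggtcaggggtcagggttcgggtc
Xpo5, chr17:46202561-46202810, plus strand: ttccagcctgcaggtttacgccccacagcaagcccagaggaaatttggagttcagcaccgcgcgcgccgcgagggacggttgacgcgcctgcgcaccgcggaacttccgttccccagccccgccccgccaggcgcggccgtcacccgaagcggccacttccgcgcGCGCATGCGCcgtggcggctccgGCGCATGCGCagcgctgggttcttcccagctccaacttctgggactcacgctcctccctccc
Nup93, chr8:94214314-94214563, plus strand: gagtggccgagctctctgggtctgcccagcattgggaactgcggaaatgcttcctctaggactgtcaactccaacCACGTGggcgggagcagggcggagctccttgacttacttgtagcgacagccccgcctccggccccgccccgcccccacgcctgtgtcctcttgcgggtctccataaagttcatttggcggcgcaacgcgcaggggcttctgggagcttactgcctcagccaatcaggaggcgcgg

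The 6 genes with the NRF1 letters, Nup107, Nup50, Nup62, Ran, Ranbp1 and Xpo5, all fell, as did 30 of the 41 genes for which a RefSeq promoter was matched. Over all expressed genes, 89 of the 468 that hold the letters fell (19.0 percent), against 18.4 percent of the 8687 expressed genes with a promoter. Among the 41 genes, the letters occurred in 6 (14.6 percent), and among the 8687 expressed genes in 5.39 percent. A longer form of 10 letters, the core run on into its own reverse complement, was searched first. It occurred in 5 of 41 genes (12.2 percent), all except Ranbp1 of the 6, and in 2.08 percent of expressed genes; the shorter form was adopted after those counts were seen. CACGTG was found in 17.1 percent of the 41 and 10.2 percent of expressed genes, CCGGAAG in 14.6 and 17.3 percent, and the E2F letters in 4.88 and 3.13 percent. CACGTG stood in 3 of the 30 genes that fell and 4 of the other 11, and CCGGAAG likewise in 2 of the 30 and 4 of the 11. CCAAT was found in 46.3 and 41.5 percent and GGGCGG in 68.3 and 64.0 percent. These 6 motifs were looked up without a test, matches of different motifs may overlap, and a match is not a binding site.

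Other genes of the pathway, outside the symbol rule, moved less uniformly. Of 9 further pore and pore-associated proteins, 4 fell and 1 rose, with a median log2 fold change of 0.02. Nupl1, the third repeat nucleoporin of the central channel, measured 20.8 FPKM in both CD137 libraries and 26.5 FPKM in the control (adjusted p = 0.00711). Gle1, an activator of the RNA export helicase, measured 10.2 and 11.0 FPKM in CD137 cells and 14.8 FPKM in the control (adjusted p = 0.00859), and Seh1l, of the Y complex, measured 34.0 and 33.1 FPKM in CD137 cells and 40.6 FPKM in the control (adjusted p = 0.0114). Sec13, also of the Y complex, did not pass, at 93.1 and 92.8 FPKM in CD137 cells and 91.8 FPKM in the control (adjusted p = 0.724).

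Of 5 further transport factors at 1 FPKM or more, 2 fell, 1 rose and 2 did not pass, with a median of -0.13. Rangrf, a Ran-binding protein, rose, with 25.1 and 22.4 FPKM in CD137 cells and 16.6 FPKM in the control (adjusted p = 0.00890). Phax, the adaptor for export of small nuclear RNA, fell, with 24.7 and 23.2 FPKM in CD137 cells and 30.6 FPKM in the control (adjusted p = 0.0103). Ranbp3, a cofactor of Xpo1, fell, with 26.6 and 28.1 FPKM in CD137 cells and 32.3 FPKM in the control (adjusted p = 0.0265).

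Among 23 genes of messenger RNA export, 6 fell and 6 rose, with a median of -0.04. Alyref, an export adaptor, fell to 45.9 and 51.3 FPKM in CD137 cells, against 73.7 FPKM in the control (adjusted p = 0.00435). Ncbp2, of the cap-binding complex, and Pcid2, of the export complex TREX-2, fell to 0.734 and 0.741 of the control level. The 6 that rose were Chtop, Sarnp, Zc3h11a, Ddx19b, Thoc2 and Nxt2. In the table's KEGG annotation, 30 of the 51 genes belong to RNA transport. Of the other 199 expressed genes of that term, 37 fell and 39 rose, where 18.2 percent of all expressed genes fell and 24.4 percent rose. The median log2 fold change of the 199 was -0.00011, against 0.03 for all expressed genes.

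Of 13 expressed genes of the lamina and inner nuclear membrane, 6 fell and 3 rose, with a median of -0.03. The 3 that rose were Syne1, Sun2 and Lemd2. Syne1 had the largest absolute log2 fold change of the 13, at 0.74. Tmpo, a lamina-associated protein, fell to 72.3 and 70.1 FPKM in CD137 cells, against 100.2 FPKM in the control (adjusted p = 0.00193). Lmnb1, a B-type lamin, fell to 34.7 and 36.7 FPKM in CD137 cells, against 54.4 FPKM in the control (adjusted p = 0.00200). Lbr, the lamin B receptor, fell to 47.9 and 47.6 FPKM in CD137 cells, against 66.1 FPKM in the control (adjusted p = 0.00204).

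Proliferation genes moved with the set. All 11 of them, which include the replicative helicase subunits and Pcna, fell. Their log2 fold changes had a median of -0.67, and their levels summed to 647 and 635 FPKM in CD137 cells, against 1016 FPKM in the control. The part of proliferation, of the macrophage and osteoclast markers that differed and of the epithelial transcripts in CD137 replicate 2 in the lower level of pore and transport genes was not tested.

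**Figure D4:**
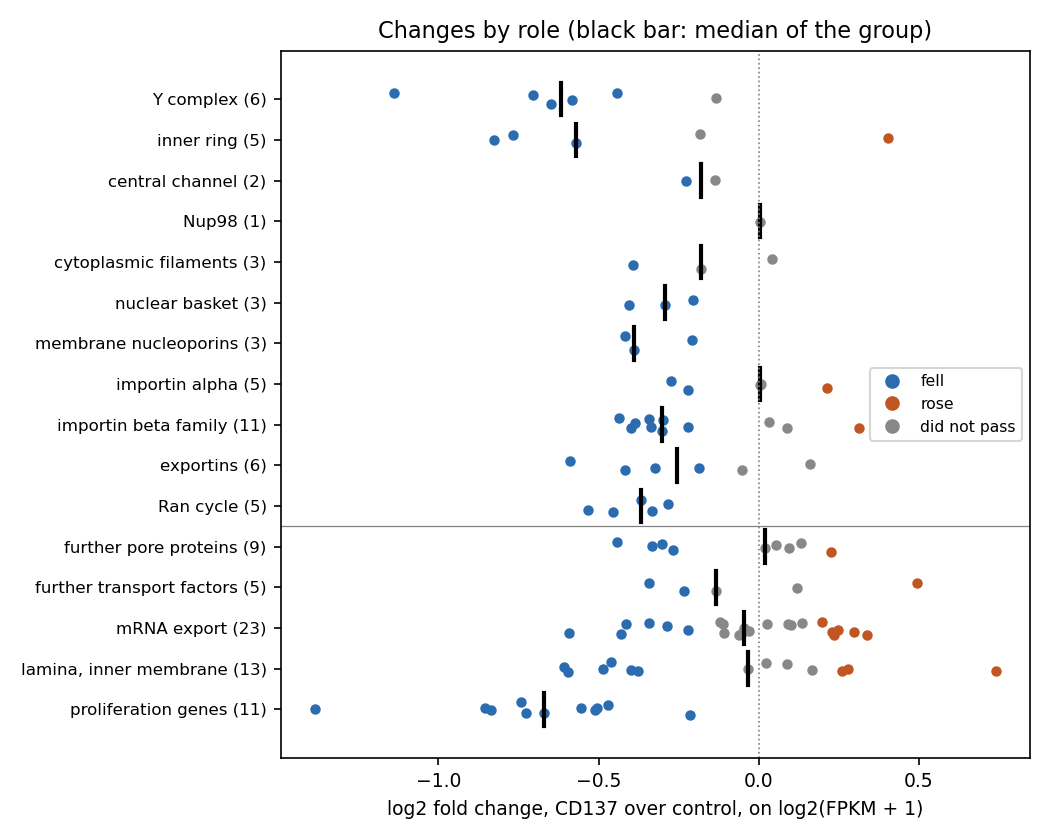
Log2 fold change, CD137 over control, of each expressed gene by role, with the number of genes in parentheses; the black bar is the group's median. Nuclear pore and transport genes are above the line and other lists below it. The 6 genes grouped as Y complex have a median of -0.62 and the inner ring of -0.57. Importin alpha and Nup98 sit near 0, and the proliferation genes have a median of -0.67.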

How the data were processed

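Per the labels, RNA of RAW264.7 cells was captured on oligo-dT beads before sequencing. The authors deposited FPKM per gene and library, rounded to 2 decimals, per the file headers and the values; FPKM is relative to each library's total. The submitters' processing notes list HISAT2, Bowtie2, RSEM and the build mm10 and give no version. The deposited log2 ratios between pairs of libraries follow from the FPKM. Per the file headers, the authors computed p-values by Poisson statistics for pairs of libraries, and the deposited adjusted values exceed 1 for some genes and were treated as a score. Whether the reads are stranded is not given in the sources used here.

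Of 21990 genes listed, 16003 had values; 1 line naming no gene was left out. Groups came from the sample titles. limma 3.58.1 (R 4.3.3; empirical Bayes with a mean-variance trend) was fitted to log2(FPKM + 1) for 10720 genes at 1 FPKM or more in some library, with Benjamini-Hochberg adjustment over all of them and a threshold of 0.05. The fit has 1 residual degree of freedom, and fold changes on this scale understate those of low genes. Fits with other pseudocounts, filters, scalings and variance models, and each CD137 library alone, were also made. The genes, role groups, other lists and the 1 FPKM filter were chosen with earlier results of these data known, including that a fit without the filter calls 0 genes. Genes named with values in each library are the most abundant of a role group. They are also up to 4 of it with the largest change that passed and up to 2 that did not. From each other list up to 3 are given by p. Nup160, Tnpo1, Tnpo2, Sec13, the single markers, the sums and the Y complex with Seh1l, Sec13 and Ahctf1 were added after their values were seen.

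Whole reads were solved (Python 3.11.15, scipy 1.17.1) by matching the authors' Poisson p-values, which gives each library's relative depth. Where several solutions matched, those within 0.5 percent of the FPKM ratios were kept. On simulated data 40 of 40 genes were recovered, but with equal effective lengths in all libraries. Neither the search nor that tie-break was tested under unequal ones. Among the genes of the set left unsolved, Ran, Ranbp2 and Xpo1 kept several solutions. For the rest, such as Nup155 and Nup205, no solution was left, either because none matched or because the tie-break removed all. Promoters come from RefSeq (GRCm38.p6, the same assembly as mm10); motif letters were chosen after the data were seen.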

Additional observations from a re-analysis of the deposited data

How the results depend on the processing

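Of the 50 expressed genes, 35 were called lower and 3 higher, and no gene changed direction under any of the alternatives run where it had been called. With a pseudocount of 0.1 the counts were 34 and 3, and with 0.5 they were 35 and 3. At 5 FPKM or more they were 36 and 4, with TPM scaling or median centring 39 and 3, and without a mean-variance trend 28 and 2. Calls over all genes changed too. The main fit called 1949 lower and 2614 higher of 10720 expressed genes. At 5 FPKM or more these were 1964 and 2442 of 8843. Of the 10720, they were 2293 and 2787 with TPM scaling, and 2404 and 2629 with median centring. Without the trend they were 1627 and 2174. Without a filter on low values limma called 0 genes lower and 0 higher among the 51, and 0 of all 16003 genes. The smallest adjusted p of that fit was 0.0802. At an unadjusted p under 0.05 it gave 32 lower and 4 higher among the 51, and 5281 of all genes in either direction. All calls here thus depend on that filter. The median log2 fold change of -0.30 was -0.32 with TPM scaling and -0.32 with median centring. With a single CD137 library against the control it ranged from -0.30 to -0.28, as values with no test. Nup153 did not pass with a pseudocount of 0.1, and Ipo13, Kpna2, Kpna4, Nup153, Nup62, Pom121, Tnpo1 and Xpo1 did not pass without the trend. Nup35 passed as lower and Xpo6 as higher at 5 FPKM or more, and Nup35, Nup37, Nup54 and Ranbp2 passed as lower under both other scalings. No paired analysis was possible because the groups used share only replicate number 2. The cause of these changes was not tested. With 1 control library, a difference between the cultures cannot be told apart from an effect of Cd137.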
